A study of Mus musculus with 6 samples.

Results

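Genes for the activation and oxidation of fatty acids were followed in glomerular endothelial cells (GEC) of normal and diabetic mice. The set held 47 genes, given by symbol, of 19938 genes that had a probeset of their own on the array, that is, one annotated with a single gene symbol. It ran from the acyl-CoA synthetases and the carnitine shuttle through the enzymes of mitochondrial and peroxisomal beta-oxidation to their regulators, with lipid droplet proteins and lipases. Of the 47, 43 had such a probeset and 40 reached a linear signal of 100 (6.64 on the log2 scale) in 3 or more arrays, the level at which a gene was tested. Ppara, Ppargc1a and Pdk4 were measured but stayed under that level. Acsl3 and Cpt1b were read only by a probeset shared with a second gene, no probeset was annotated for Acsl1 or Ucp2, and these 4 genes were not analysed here.

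All mice carried Tie2-GFP, a transgene in which the Tie2 promoter, active in endothelium and in some blood cells, drives green fluorescent protein. The normal group was Tie2-GFP/ +/+ and the diabetic group Tie2-GFP/ DB/DB, here called db/db, homozygous for a loss-of-function allele of the leptin receptor that makes mice obese and diabetic, and all were 7 months old. GFP positive cells were sorted from sieved, dissociated glomeruli, and each of 3 normal and 3 db/db samples was hybridised to 1 Affymetrix Mouse Gene 1.0 ST array. The labels call the samples biological replicates without saying how many animals stood behind each.

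A fatty acid is oxidised only after it has been joined to coenzyme A by an acyl-CoA synthetase. Long chains then cross into the mitochondrion on carnitine, where repeated rounds of dehydrogenation, hydration, a further dehydrogenation and thiolysis shorten them and pass electrons to the respiratory chain. Peroxisomes shorten very long and branched chains by a related route. Endothelial cells make most of their ATP by glycolysis, but they take up fatty acids from the blood, store them in lipid droplets and oxidise them.

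The 6 arrays had median log2 values between 7.00 and 7.04 and pairwise correlations over the tested probesets between 0.924 and 0.953. The values had been normalised between arrays before deposit, which by itself brings such medians together. All 12 endothelial markers were past the level in every array, with a summed linear signal of 67658 to 68599 in normal and 68392 to 70368 in db/db samples. Without overlap 5 of the 12 were higher and 3 lower in db/db, where 7.01% and 5.31% of all tested probesets were. Tek changed by -0.33 ± 0.12 and Cdh5 by 0.21 ± 0.08 (SE). Their unadjusted p was 0.0321 and 0.0399 and their adjusted p 0.754 each with limma. Of 12 proximal tubule markers, a segment that lives on fatty acid oxidation, 4 passed the level, Lrp2 and Cubn did not reach it in any array, and the summed signal was 960 to 1026 in normal and 966 to 1150 in db/db. Of those past the level, Slc22a6 was higher in db/db without overlap, at 6.61, 6.56 and 6.51 in normal and 6.82, 6.65 and 6.67 in db/db. It reached the level only in the db/db arrays. The other tested markers of this list overlapped between the groups. Of 5 measured adipocyte markers 2 passed the level, Adipoq and Lep did not reach it in any array, and the sums were 433 to 463 in normal against 463 to 488 in db/db, whose ranges met. Of 8 leukocyte markers 3 passed the level, Ptprc, Itgam and Adgre1 did not reach it in any array, and the sums were 995 to 1046 in normal and 806 to 1879 in db/db, with the highest in db/db replicate 1. Cd68, a macrophage marker of this list, gave 6.63, 6.72 and 6.81 in normal and 7.95, 7.59 and 6.91 in db/db arrays (log2 signal), all higher in db/db, with a change of 0.76 ± 0.27 (SE, unadjusted p = 0.0308 and adjusted p = 0.752 with limma). Lyz2, also a myeloid marker, was under the level in 4 arrays and not tested, at 6.21, 6.19 and 6.63 in normal and 7.41, 6.82 and 6.61 in db/db. The other tested markers of this list, Cd3e and Tyrobp, overlapped between the groups and had lower means in db/db. Their changes were -0.11 ± 0.16 and -0.06 ± 0.64 (SE). Tyrobp gave 9.03, 8.68 and 8.79 in normal and 10.04, 7.45 and 8.83 in db/db. Of 5 distal nephron markers 3 passed the level, and the sums were 464 to 565 in normal and 594 to 726 in db/db. Every db/db sum lay above every normal sum, with the highest in db/db replicate 2. Calb1 and Umod were higher in db/db without overlap. Calb1 reached the level in 2 arrays and was not tested, at 5.34, 5.44 and 5.59 in normal and 5.85, 7.41 and 6.82 in db/db. Umod ranged from 6.24 to 6.63 in normal and from 6.68 to 6.87 in db/db arrays. It was past the level in the db/db arrays alone, so Umod was tested on arrays that lay on both sides of it. Umod changed by 0.31 ± 0.13 (SE, unadjusted p = 0.0561 and adjusted p = 0.783 with limma). The other markers of this list overlapped between the groups. Of 6 podocyte markers 4 and of 6 mesangial markers 2 passed the level, with podocyte sums of 943 to 1078 and 866 to 957 and mesangial sums of 564 to 663 and 541 to 704 in normal and db/db, respectively. The podocyte marker Cdkn1c was lower in db/db without overlap, with a change of -0.40 ± 0.12 (SE, unadjusted p = 0.0145 and adjusted p = 0.677 with limma). Wt1 was higher without overlap, with a change of 0.08 ± 0.07. The other measured markers of these lists overlapped between the groups. Of the erythrocyte markers 2 were measured, both past the level, with sums of 284 to 309 and 270 to 300. Alpha-globin signal, read by probesets shared between both alpha-globin genes, averaged 11.5 in normal and 9.42 in db/db on the log2 scale. In bulk RNA of sorted cells, fewer cells of a type and less RNA per cell cannot be told apart. The part of these markers in the values below was not tested. The leptin receptor gene, Lepr, lay between 4.77 and 5.12 in all 6 arrays, under the level in both groups, so its signal could not check the genotype.

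No gene of fatty acid oxidation passed the test after adjustment. With limma on the log2 signal and Benjamini-Hochberg adjustment over all 20661 tested probesets, 0 of 40 members passed a threshold of 0.05, as did 0% of all tested probesets, and the smallest adjusted p of a member was 0.507 (Decr1). At an unadjusted p under 0.05, 3 members were higher in db/db (Decr1, Plin2 and Hadha), which is 7.5% of 40 against 3.48% of all tested probesets. By the same measure 1 was lower (Hadh), which is 2.5% against 2.91%. In 4 members (the same 3 and Acsl5, 10% of 40) every db/db array lay above every normal array, against 7.01% of probesets, and in 2 (Hadh and Etfb, 5%) every db/db array lay below, against 5.31%. With median centring of each array Acsl5 and Etfb overlapped and Acaa1a was lower without overlap, which gave 3 and 2 members. These shares rest on 1 to 4 genes each. The shares of members lower in db/db lay near those of all probesets, and the shares of members higher in db/db lay above them. Whether the shares differed from those of all probesets was not tested.

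The set as a whole showed no clear shift between the groups, although it was not tested as a set. The mean was higher in db/db for 23 members and lower for 17, and the median log2 change was 0.03, beside 0.01 over the 12763 genes tested by 1 probeset each. The median size of a change, regardless of sign, was 0.11 for members and 0.11 for all genes, and the median residual SD between arrays of a group was 0.16 in both. For 27 of the 40 members (67.5%) the whole 95% interval of the change lay within 1.5-fold in either direction, as it did for 66.4% of all tested genes. For these 27 the arrays therefore bounded the difference, and for the other 13 a change of 1.5-fold or more lay within the interval. In the plot of cumulative changes the members followed the curve of all genes.

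**Figure D1:**
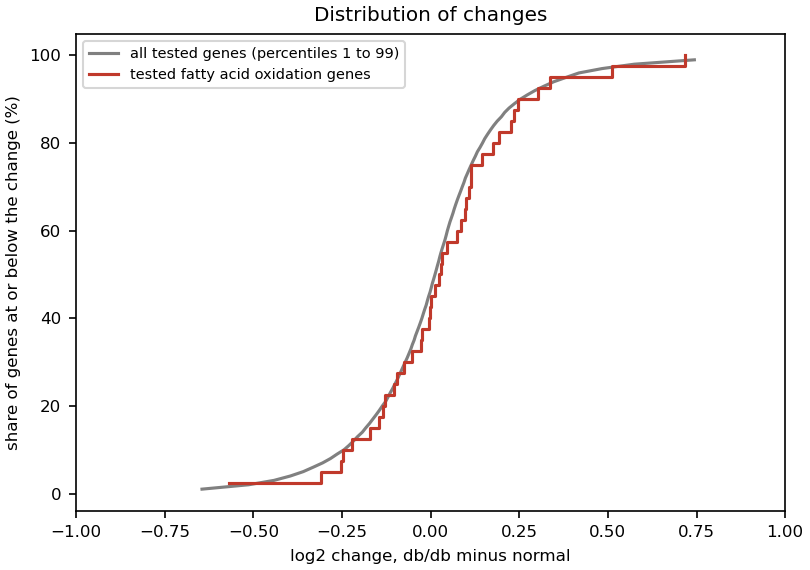
Share of genes (vertical axis, percent) at or below each log2 change of db/db minus normal (horizontal axis), for the 40 tested fatty acid oxidation genes (red steps) and for all 12763 tested genes (grey, percentiles 1 to 99). The red steps lie close to the grey curve, with medians of 0.03 and 0.01, and the member farthest to the right is Plin2 at 0.72.

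The db/db arrays differed among themselves. Of the 40 tested members, 18 lay above the mean of the normal arrays in db/db replicate 1, 27 in replicate 2 and 21 in replicate 3, that is 45%, 67.5% and 52.5%, where all tested genes gave 51.6%, 50.9% and 54.5%. The median of the members in these 3 arrays was -0.04, 0.10 and 0.02 from the normal mean on the log2 scale. Normal replicate 3 had 13 members above that mean (32.5%, against 44.3% of all genes). Each normal array is itself part of that mean, so normal arrays lie nearer to it than db/db arrays by construction. The map of single arrays gives these values gene by gene.

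**Figure D2:**
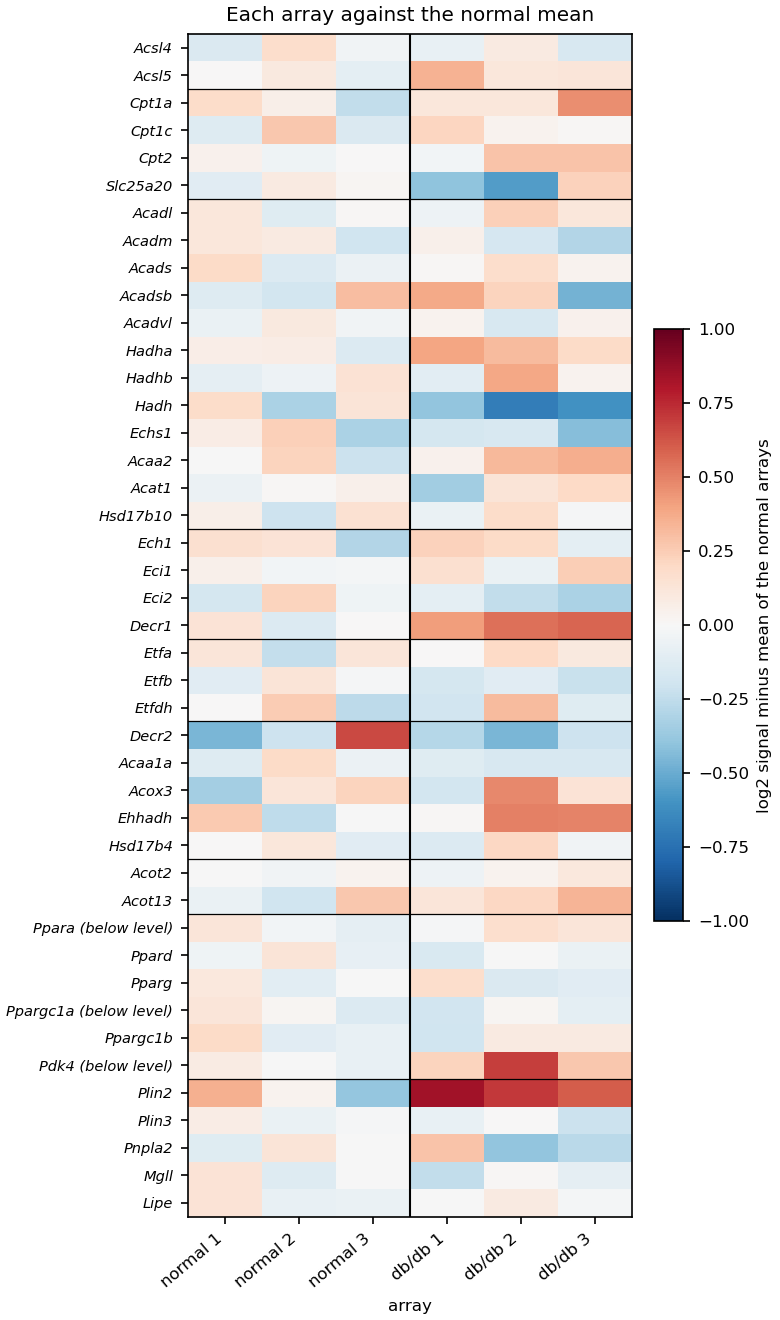
Log2 signal of each of the 43 measured members (rows, in order of step, with lines between steps) in each array (columns), minus the mean of the 3 normal arrays of that gene; red is higher and blue is lower, and the vertical line parts normal from db/db arrays. Decr1, Plin2 and Hadha are red and Hadh is blue in all 3 db/db arrays. Other rows also have 1 colour in all 3, such as Acsl5 and Acaa2 (red) and Echs1 and Etfb (blue). In the normal arrays each row mixes both colours by construction.

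Activation, the joining of a fatty acid to coenzyme A, was read by Acsl5 and Acsl4. Acsl5, a synthetase of mitochondria and endoplasmic reticulum, gave 10.86, 10.96 and 10.76 in the normal arrays and 11.21, 10.97 and 10.98 in the db/db arrays (log2 signal). The db/db values all lay above the normal ones, by 0.01 at the closest pair. The mean change was 0.19 ± 0.11 (SE, n = 3 per group, limma unadjusted p = 0.122, adjusted p = 0.835). Acsl4, which prefers arachidonic acid, overlapped between the groups, with a change of -0.05 ± 0.12.

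Of the carnitine shuttle, which carries long chains into the mitochondrion, 4 of 5 genes were tested, 3 had a higher mean in db/db, and none passed at an unadjusted p under 0.05. Cpt1a, the transferase that sets the rate of entry, ranged from 9.70 to 10.13 in normal arrays and gave 10.06, 10.06 and 10.41 in db/db arrays (log2 signal). The groups overlapped, and the highest value was that of db/db replicate 3. The change was 0.23 ± 0.16 (SE), with a 95% interval from -0.16 to 0.63. Cpt2, which returns the acyl group to coenzyme A inside the mitochondrion, changed by 0.18 ± 0.11, with db/db replicates 2 and 3 at 8.46 each and replicate 1, at 8.15, among the normal values of 8.13 to 8.22. Cpt1c, a mostly neuronal form, changed by 0.09 ± 0.14.

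Slc25a20, the carrier that exchanges acylcarnitine for carnitine across the inner membrane, was the one shuttle gene with a lower mean in db/db. It ranged from 8.29 to 8.49 in normal and from 7.84 to 8.63 in db/db arrays (log2 signal). Replicates 1 and 2 of db/db were below all normal arrays and replicate 3 was above them, so the change of -0.25 ± 0.22 (SE) rested on arrays that disagreed.

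The core cycle of mitochondrial beta-oxidation held 12 tested enzymes. In db/db 7 had a higher and 5 a lower mean, with a median log2 change of 0.04, and at an unadjusted p under 0.05 1 was higher and 1 lower. Both of these catalyse the same chemical step, the dehydrogenation of the hydroxyacyl-CoA, on chains of different length.

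Hadha encodes the alpha subunit of the trifunctional protein, which hydrates and dehydrogenates long chains. It gave 10.23, 10.24 and 10.03 in normal and 10.56, 10.48 and 10.36 in db/db arrays (log2 signal), so that every db/db array was above every normal one. The change was 0.30 ± 0.10 (SE, n = 3 per group), or 1.23-fold, with a limma unadjusted p = 0.0251 and adjusted p = 0.717. Without normal replicate 3, db/db replicate 1 or db/db replicate 2 the unadjusted p lay above 0.05, at up to 0.0777.

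Hadh encodes the dehydrogenase that acts on short and medium chains in the matrix. It gave 9.26, 8.76 and 9.20 in normal and 8.68, 8.38 and 8.47 in db/db arrays (log2 signal). All db/db arrays were lower than all normal arrays, although normal replicate 2 stood only 0.09 above db/db replicate 1. The change was -0.57 ± 0.17 (SE, n = 3 per group), a signal 1.48-fold higher in normal, with a limma unadjusted p = 0.0151 and adjusted p = 0.679. With each array left out in turn the change ran from -0.72 to -0.48 and the unadjusted limma p from 0.0023 to 0.04996.

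Hadhb, the beta subunit that joins Hadha in the trifunctional protein and carries its thiolase, gave 9.89, 9.93 and 10.13 in normal and 9.88, 10.37 and 10.02 in db/db arrays (log2 signal). These groups overlapped throughout, with a change of 0.11 ± 0.15 (SE). A second Hadhb probeset also gave 0.11 ± 0.15. The probeset with the higher mean is numbered among probesets of chromosome 2, on which 20 of its 20 nearest numbered neighbours lie, whereas the gene is on chromosome 5. No other of the 45 single-symbol probesets of members, tested or not, had such a place.

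Hadha and Hadhb lie head to head on chromosome 5, in opposite directions, and their RefSeq starts (GRCm38.p6) are 272 bases apart. The bases before the Hadhb start are therefore also those before the Hadha start, and they are shown because the 2 subunits of 1 protein share them while the log2 changes above were 0.30 for one and 0.11 for the other. Whether these changes differed from each other was not tested. The 250 bases before the Hadhb start, at chr5:30155003-30155252 on the plus strand, lie between both genes, hold 58.8% G or C, and hold none of the motifs searched for below.
Hadhb and Hadha, shared upstream bases: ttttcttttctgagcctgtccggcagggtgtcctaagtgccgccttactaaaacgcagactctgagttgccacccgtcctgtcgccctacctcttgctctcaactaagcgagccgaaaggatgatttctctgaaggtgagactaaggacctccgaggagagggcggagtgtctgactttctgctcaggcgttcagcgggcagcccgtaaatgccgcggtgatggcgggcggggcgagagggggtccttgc

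The acyl-CoA dehydrogenases, which open each round and differ in the chain length they accept, all overlapped between the groups. The log2 changes were 0.10 ± 0.11 (SE) for Acadl (long chains), -0.03 ± 0.10 for Acadvl (very long chains), -0.13 ± 0.14 for Acadm (medium chains) and 0.08 ± 0.12 for Acads (short chains). Each of these 4 intervals lay within 1.5-fold. Acadsb, which acts on short branched chains, varied most among the enzymes of the cycle, from 8.59 to 9.08 in normal and from 8.30 to 9.15 in db/db arrays, with a change of 0.05 ± 0.26.

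The remaining enzymes of the cycle overlapped as well. Acaa2, the thiolase that cleaves off acetyl-CoA, changed by 0.25 ± 0.15 (SE), and Echs1, the short-chain hydratase, by -0.25 ± 0.17. Acat1, the acetyl-CoA acetyltransferase that also serves ketone bodies, changed by -0.01 ± 0.16, and Hsd17b10, a dehydrogenase of short branched chains, by 0.03 ± 0.13. At 0.156 and 0.186 the unadjusted p of Acaa2 and Echs1 was above the threshold.

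Auxiliary enzymes let unsaturated chains enter the cycle, and 1 of these, Decr1, had the smallest p of the set. Decr1 encodes the mitochondrial dienoyl-CoA reductase, which removes double bonds that the cycle cannot process. It gave 10.34, 10.06 and 10.20 in normal and 10.62, 10.75 and 10.78 in db/db arrays (log2 signal). The lowest db/db array stood 0.28 above the highest normal one. The change was 0.51 ± 0.11 (SE, n = 3 per group), or 1.43-fold, with a 95% interval from 0.25 to 0.77, a limma unadjusted p = 0.0032 and an adjusted p = 0.507. Leaving out each array in turn gave changes from 0.44 to 0.58 and unadjusted p-values from 0.0036 to 0.0141.

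The other auxiliary enzymes overlapped between the groups. Eci1 and Eci2, isomerases that shift a double bond into place, changed by 0.12 ± 0.11 (SE) and -0.22 ± 0.13, and Ech1, a dienoyl-CoA isomerase, by 0.11 ± 0.17. The peroxisomal reductase Decr2, a relative of Decr1 in the other organelle, gave 8.48, 8.73 and 9.59 in normal and 8.65, 8.48 and 8.73 in db/db arrays (log2 signal). Its normal replicate 3 stood alone above the other 5 arrays. The change of -0.31 ± 0.30 became 0.02 without that array, so no direction was settled for Decr2.

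**Figure D3:**
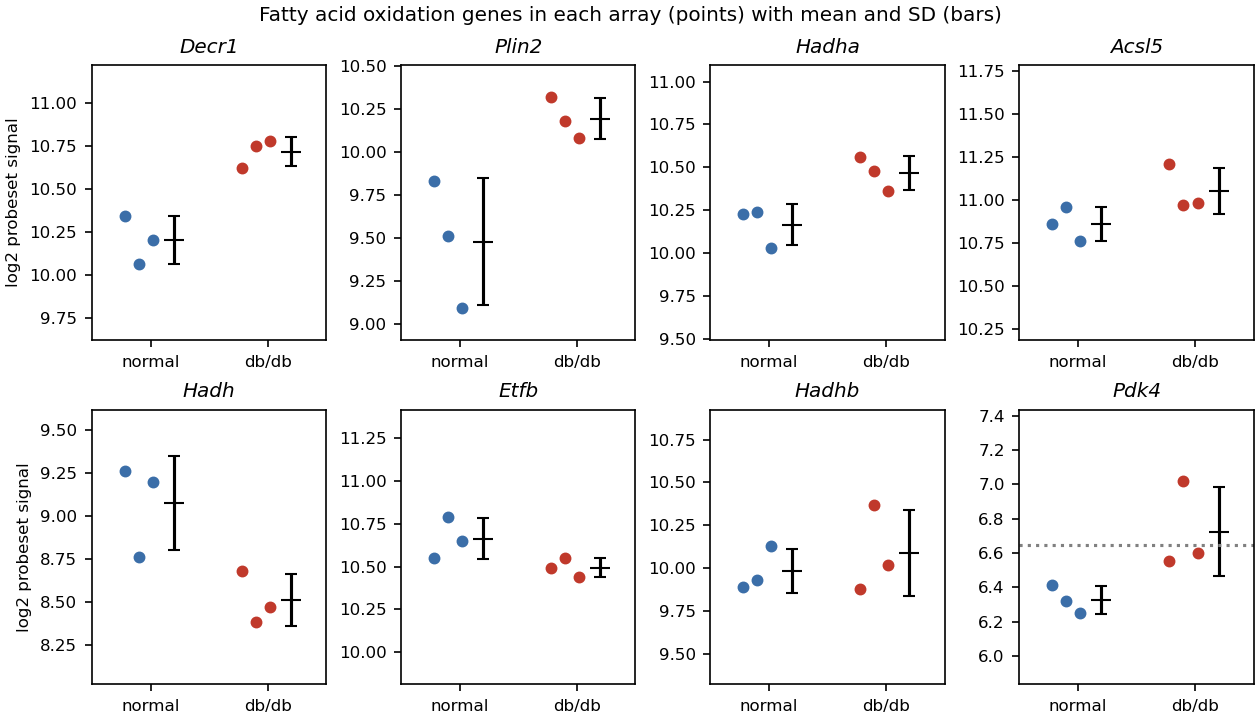
Log2 probeset signal (vertical axis, a range of its own in each panel) of 8 genes in each normal (blue) and db/db (red) array, with bars for the mean and SD over the 3 arrays of a group. No db/db point falls within the normal range for Decr1, Plin2, Hadha and Acsl5 (all above) or Hadh and Etfb (all below), Hadhb overlaps, and Pdk4 lies mostly under the level of 6.64 at which genes were tested (dotted line).

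Electron transfer flavoprotein takes the electrons of the acyl-CoA dehydrogenases to the respiratory chain. Its beta subunit, Etfb, gave 10.55, 10.79 and 10.65 in normal and 10.49, 10.55 and 10.44 in db/db arrays (log2 signal). The db/db values were all below the normal ones, but db/db replicate 2 and normal replicate 1 were equal to the 2 decimals printed. The change was -0.17 ± 0.09 (SE, limma unadjusted p = 0.118, adjusted p = 0.831). The alpha subunit, Etfa, which pairs with Etfb in the same protein, changed by 0.10 ± 0.13 with overlapping groups, and Etfdh, the dehydrogenase that hands the electrons on to ubiquinone, by 0.00 ± 0.19.

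All 5 peroxisomal members were tested, none passed at an unadjusted p under 0.05, and their median change was 0.01. Ehhadh, the bifunctional enzyme for which the PPARα response of liver is well known, gave 6.76, 6.24 and 6.49 in normal and 6.51, 7.00 and 6.99 in db/db arrays (log2 signal). Of these only normal replicate 1 and db/db replicates 2 and 3 reached the level of 6.64, so Ehhadh was tested on arrays that lay on both sides of it. The groups overlapped, and the change was 0.34 ± 0.20 (SE, unadjusted p = 0.145 with limma). Acox3, an oxidase of branched chains, changed by 0.15 ± 0.23, Hsd17b4, the second bifunctional enzyme, by 0.01 ± 0.12, and the thiolase Acaa1a by -0.15 ± 0.11.

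Acyl-CoA thioesterases release the fatty acid from coenzyme A again. Acot2 of the mitochondrial matrix changed by 0.03 ± 0.08 (SE), the smallest SE of the set, and its 95% interval ran from -0.17 to 0.23. Acot13, a thioesterase bound to mitochondria, changed by 0.23 ± 0.15. Both overlapped between the groups.

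The regulators of the pathway gave no difference that passed. Pparg, a nuclear receptor for fatty acids best known from fat cells, changed by -0.03 ± 0.12 (SE), Ppard, a relative expressed in many tissues, by -0.07 ± 0.09, and the coactivator Ppargc1b by 0.00 ± 0.13. The 95% intervals of all 3 lay within 1.5-fold. Ppara, the receptor that switches on fatty acid oxidation in liver, lay between 5.98 and 6.24 over the 6 arrays, and the coactivator Ppargc1a between 6.11 and 6.42, so that both stayed under the level of 6.64 in every array and were not tested. Ucp2, an uncoupling protein of the inner membrane, had no probeset annotated.

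Pdk4, the kinase that closes pyruvate dehydrogenase and so spares glucose, was the member just under the level. It gave 6.41, 6.32 and 6.25 in normal and 6.55, 7.02 and 6.60 in db/db arrays (log2 signal). Every db/db array was above every normal array, but db/db replicate 2 was the only array at the level, and the third-highest array stood at 6.55, whereas for Ehhadh, the member just inside, it stood at 6.76. The difference of 0.39 was therefore not tested in the comparison above. With no level filter its limma p was under 0.05 without adjustment, and 0 of 43 members passed after adjustment.

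Among lipid droplet proteins and lipases, Plin2 had the largest change of the set. Plin2, or perilipin 2, coats lipid droplets, and its level is known to follow the amount of stored lipid in many cells. It gave 9.83, 9.51 and 9.09 in normal and 10.32, 10.18 and 10.08 in db/db arrays (log2 signal). All db/db arrays were higher than all normal arrays, by 0.25 at the closest pair, and the normal arrays were the more spread (SD 0.37 against 0.12). The change was 0.72 ± 0.20 (SE, n = 3 per group), or 1.64-fold, with a 95% interval from 0.22 to 1.21, a limma unadjusted p = 0.0127 and an adjusted p = 0.646. Without 1 array at a time the change lay between 0.53 and 0.89 and the unadjusted p between 0.0034 and 0.0427.

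The other members of lipid storage and release overlapped between the groups. Plin3, a second droplet coat protein, changed by -0.09 ± 0.10 (SE). The lipases that free fatty acids one after another from stored fat changed by -0.13 ± 0.20 (Pnpla2, which starts on triglyceride), 0.02 ± 0.09 (Lipe, which acts on diglyceride) and -0.10 ± 0.11 (Mgll, which ends on monoglyceride). Pnpla2 was high in db/db replicate 1 at 10.07 and low in replicates 2 and 3 at 9.39 and 9.51, on either side of the normal range of 9.66 to 9.91. Plin1, the droplet coat protein of fat cells and an adipocyte marker here, changed by 0.20 with an unadjusted p of 0.070 with limma, and its db/db arrays all lay above its normal ones.

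**Figure D4:**
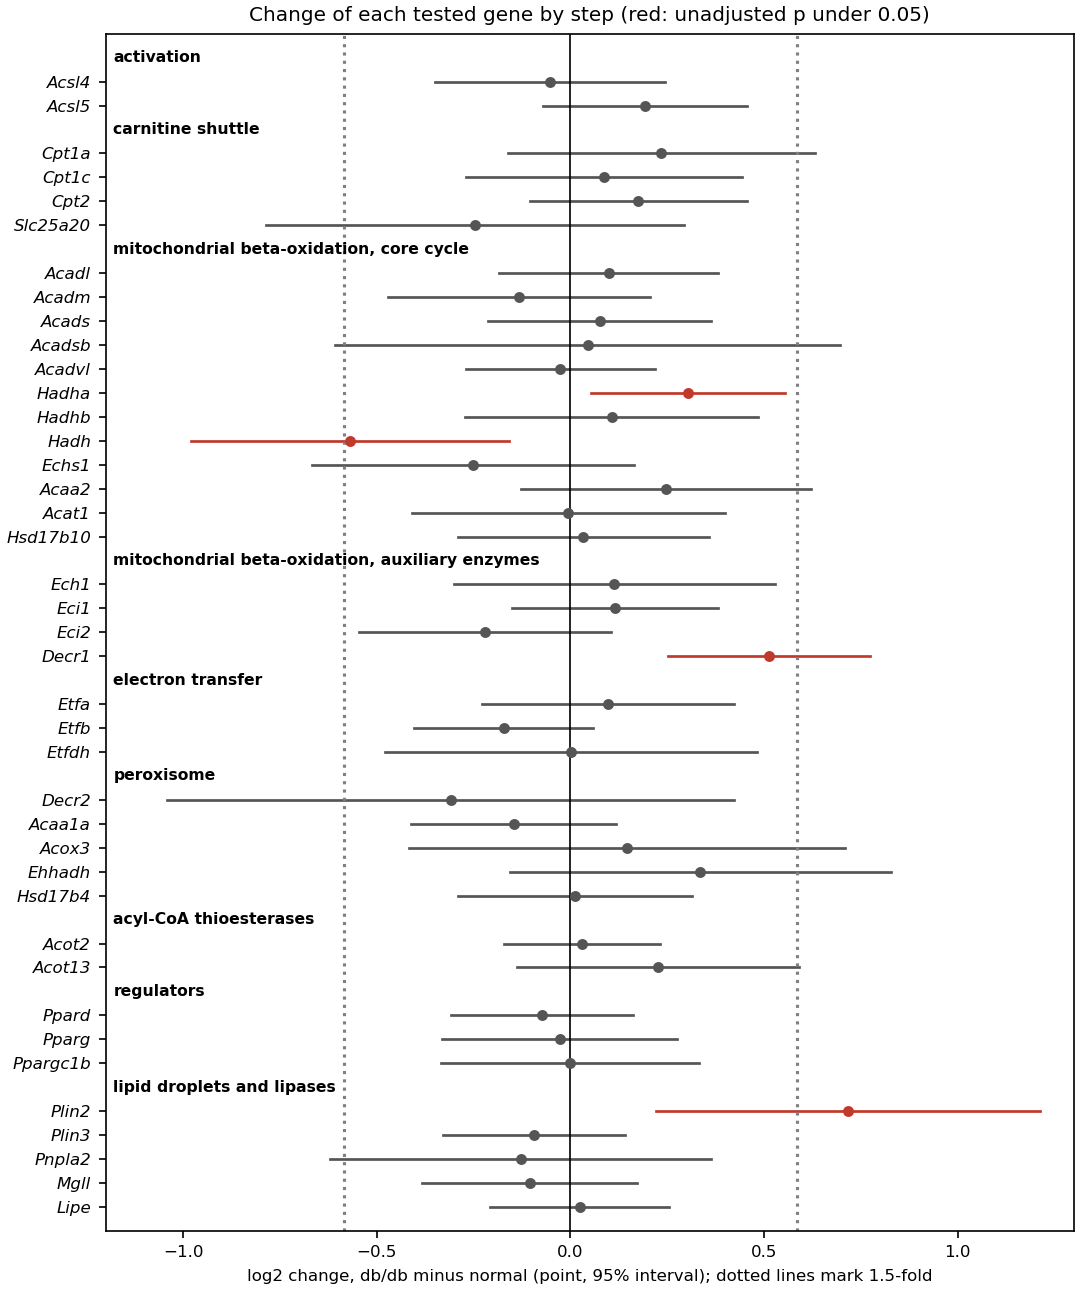
Log2 change of db/db minus normal with its 95% interval (horizontal axis) for each of the 40 tested members, in order of step; red marks an unadjusted limma p under 0.05, and dotted lines mark 1.5-fold. Decr1, Hadha and Plin2 lie to the right and Hadh to the left with intervals that leave out 0, and 27 intervals stay between the dotted lines.

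PPARs bind, with a retinoid X receptor, to a direct repeat of 2 AGGTCA half-sites with 1 base between them, called DR1. The RefSeq promoter windows of the members (250 bases before to 50 after a start, GRCm38.p6) were searched for it on both strands, with up to 2 mismatches over both half-sites. Windows were at hand for 40 of the 47 members (45 windows), and not for Cpt1b, Acot13, Hsd17b4, Ppargc1b, Decr1, Acat1 or Acaa2. A DR1 was found in 4 of the 45 windows (8.89%), against 3.86% of 32851 windows of all genes. Of the genes with one, Plin2 was among those with an unadjusted p under 0.05, and Echs1, Etfa and Slc25a20 were not. Hadha and Hadh, also with an unadjusted p under 0.05, had windows but no DR1 in them. Bases outside the windows were not searched. The 4 sites are shown because PPAR response is the best known control shared by these genes, each with 8 bases on either side, 5′ to 3′ on the strand of the repeat, with the repeat in capitals.
Plin2, chr4:86670264-86670292, plus strand, centre at -219 from the start: tctgacttAGGTCAGGGGTCCtgaaagct
Echs1, chr7:140116484-140116512, minus strand, centre at -77 from the start: gcccgctcAGGTCACGGGTCCacccctta
Etfa, chr9:55512300-55512328, plus strand, centre at -71 from the start: ttgggagtAGGGCAAAGGTAAgggtgtgc
Slc25a20, chr9:108662134-108662162, plus strand, centre at base 13 after the start: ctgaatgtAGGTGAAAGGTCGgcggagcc

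Each of the 4 sites had 2 mismatches, the most allowed. The Plin2 gene lies on the minus strand of chromosome 4, and its repeat reads on the opposite strand of the gene, so it stands as its reverse complement, again in capitals, in the 250 bases before the start (chr4:86670060-86670309, minus strand, 61.6% G or C).
Plin2, upstream bases: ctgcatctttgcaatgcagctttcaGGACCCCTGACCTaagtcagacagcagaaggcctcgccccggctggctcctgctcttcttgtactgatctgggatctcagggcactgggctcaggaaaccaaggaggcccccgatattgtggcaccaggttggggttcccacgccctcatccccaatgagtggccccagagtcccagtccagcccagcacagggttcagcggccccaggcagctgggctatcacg

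The core of hypoxia response elements, ACGTG or GCGTG on either strand, was in 27 of the 45 windows (60%) and in 43.8% of all windows. The element of the estrogen-related receptors, TCAAGGTCA on either strand, which holds 1 AGGTCA half-site and can overlap a DR1, was in 0 of the 45 windows and in 0.423% of all windows. Windows of members were not matched to other windows for base composition. A match to these letters is a description of the sequence and does not show that a factor binds there.

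Decr1, Plin2 and Cpt2 are on chromosome 4, as is Lepr. Of these 3 members 2 had an unadjusted p under 0.05 with limma. Over all 820 tested genes placed on chromosome 4 the share was 5.49%, and over 11932 genes placed on other chromosomes it was 6.63%.

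A further 95 genes of the pathway, listed by function, stood beside the 47. Of these 89 had a probeset of their own and 64 were tested. As with the members, 0 passed limma's test after adjustment. At an unadjusted p under 0.05 2 were higher in db/db (3.13%) and 2 were lower (3.13%), near the 3.48% and 2.91% of all tested probesets. The median change was -0.03. Without overlap 4 were higher (6.25%) and 6 were lower (9.38%), against 7.01% and 5.31% of all tested probesets.

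Among 8 other acyl-CoA synthetases, Acsf2, a mitochondrial member of the family, gave 7.77, 7.49 and 7.91 in normal and 8.23, 8.28 and 8.46 in db/db arrays (log2 signal), with no overlap. Its change was 0.60 ± 0.14 (SE, unadjusted p = 0.0056 and adjusted p = 0.558 with limma). Acss1, which activates acetate in mitochondria, went the other way without overlap, from 8.09, 8.37 and 7.70 to 7.37, 7.35 and 7.63, a change of -0.60 ± 0.19 (limma unadjusted p = 0.0211). Neither passed after adjustment, and these genes of 1 enzyme family lay on opposite sides of 0.

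Hilpda, a lipid droplet protein that inhibits Pnpla2, was the related gene with the largest increase in mean. It gave 8.78, 8.77 and 9.24 in normal and 9.46, 9.92 and 9.61 in db/db arrays (log2 signal), again without overlap. Its change was 0.73 ± 0.19 (SE, unadjusted p = 0.0082 and adjusted p = 0.599 with limma), close in size to that of Plin2. Dgat1, which makes triglyceride, had its 3 db/db values below all 3 normal ones, with a change of -0.41 ± 0.17 and an unadjusted p of 0.0503.

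Sirt1, a deacetylase that acts on Ppargc1a, was at 9.65, 9.80 and 9.87 in normal and at 8.68, 9.52 and 9.27 in db/db arrays (log2 signal). The db/db arrays were all lower, replicate 1 the most, and the change was -0.62 ± 0.23 (SE, unadjusted p = 0.0359 and adjusted p = 0.754 with limma). It was the 1 of 16 other regulators with an unadjusted p under 0.05. Of these 16, 14 had a lower and 2 a higher mean in db/db, with a median change of -0.04. Over all 12763 tested genes 5913 had a lower and 6850 a higher mean. Sirt1 and Med1 were lower without overlap, 12.5% of the 16 against 5.31% of all tested probesets.

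In the lists where no gene had an unadjusted p under 0.05, the genes with the smallest p were these. Mlycd, which breaks down malonyl-CoA, the inhibitor of Cpt1a, changed by 0.11 ± 0.10 (SE). Acad8, a dehydrogenase of valine breakdown, changed by 0.19 ± 0.12, and Acot8, a peroxisomal thioesterase, by -0.20 ± 0.13. Phyh, which starts the alpha-oxidation of phytanic acid in peroxisomes, changed by -0.35 ± 0.18, with every db/db array below every normal one.

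**Figure D5:**
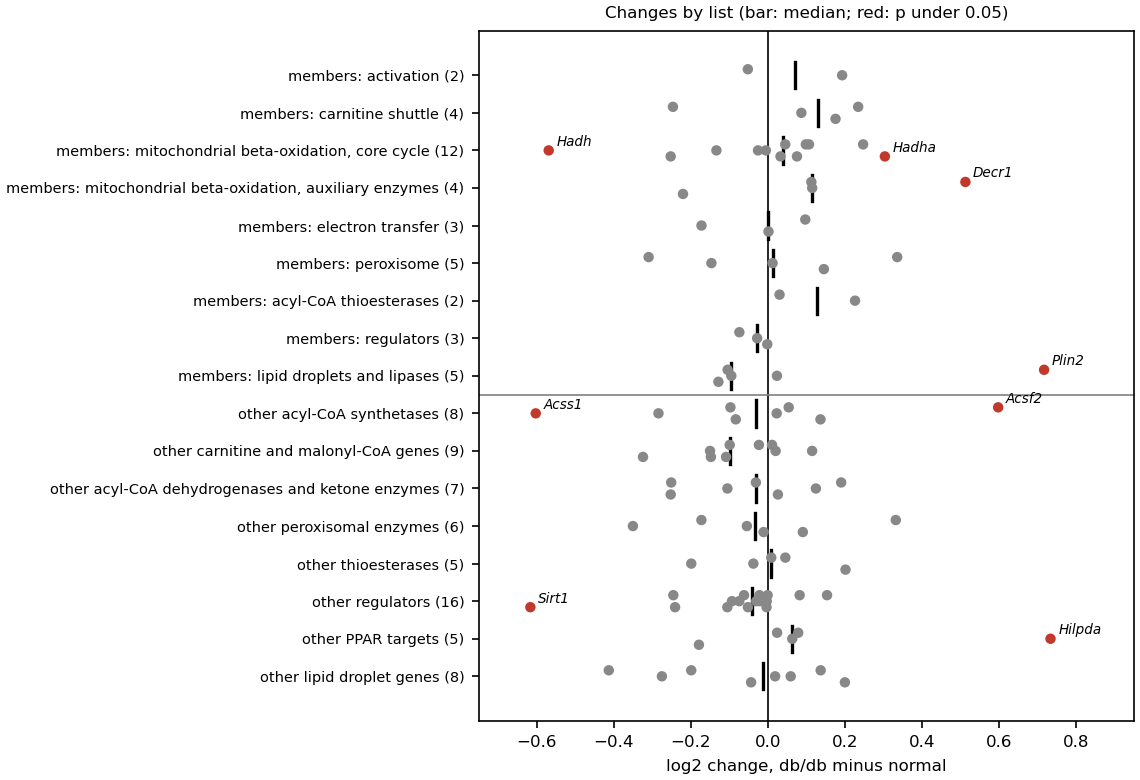
Log2 change of db/db minus normal (horizontal axis) of every tested gene (points) in the lists of members by step (above the grey line) and of other genes of the pathway (below it), with the number tested in brackets and the median of each list as a bar; red marks an unadjusted limma p under 0.05. The list medians run from -0.10 (other carnitine and malonyl-CoA genes) to 0.13 (carnitine shuttle), beside 0.01 over all tested genes. The red points, 4 members and 4 related genes, lie on both sides of 0 above and below the grey line.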

How the data were processed

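RNA of sorted GEC was amplified (NuGEN) and hybridised to 6 Affymetrix Mouse Gene 1.0 ST arrays. The deposited table holds log2 signal for every probeset and array, normalised between arrays by the authors in GeneSpring. The study's text names RMA and the submitters' processing notes MAS5, and which of them made the values is not settled here. Such normalisation makes each change relative to the other probesets of an array. No further normalisation was applied. The table held 35557 probesets, 21789 of them with a single gene symbol, 1621 with several and 12147 with none.

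The 20661 probesets whose linear signal was 100 or more in 3 or more arrays were tested two-sided for db/db minus normal with limma 3.58.1 (lmFit and eBayes, R 4.3.3), and p-values were adjusted over all of them by Benjamini-Hochberg (threshold 0.05). A gene was read by its single-symbol probeset with the highest mean. Members and lists were chosen with earlier results of these data known, and no list was tested as a set. Values in every array were given for members with an unadjusted p under 0.05, with groups that did not overlap, or needed to compare relatives, and for related genes with an unadjusted p under 0.05 (otherwise the smallest p of a list). With 3 arrays a group the smallest two-sided p of an exact permutation test is 0.1, so none was run. If samples of a group shared animals, p-values measure technical spread. The 18 alternatives covered normalisation, level, variance model, probeset choice, a replicate block, the methods' t-test and each array left out. The number of arrays limits the precision. Python 3.11.15 with matplotlib 3.10.9 was used for the plots.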

Additional observations from a re-analysis of the deposited data

How the results depend on the processing

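Counts of members past limma's adjusted test were 0 under all 18 alternatives, and the median change of members kept within 0.01 to 0.03 under the 12 that kept all arrays. Decr1, Plin2 and Hadh had an unadjusted p under 0.05 under all 18, and Hadha under all but 3, those without normal replicate 3, diabetic replicate 1 or diabetic replicate 2. Over all probesets 0 passed in all settings but those with 12763 genes tested by 1 value each, where 1 passed (1 probeset per gene) or 2 passed (mean of a gene's probesets); none of these was a member. The methods' t-test gave 1280 probesets at an unadjusted p under 0.05 and 0 after Benjamini-Hochberg adjustment, against 1320 and 0 with limma. The number of arrays limited all of these results, and 13 of 40 intervals reached beyond 1.5-fold.

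Replicate numbers did not pair the samples: deviations of same-numbered arrays correlated at -0.00, 0.04 and -0.03. With the replicate number as a block 1287 probesets had an unadjusted p under 0.05, 0 passed after adjustment, the same 4 members had an unadjusted p under 0.05, and the smallest adjusted p of a member was 0.689.

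Without 1 array at a time, 2 to 4 members were higher and 1 to 2 lower at an unadjusted p under 0.05, 2 of them lower without normal replicate 3, diabetic replicate 1 or diabetic replicate 3. Echs1 (lower) and Acot13 (higher) joined without normal replicate 3, Cpt2, Ehhadh (higher) and Pnpla2 (lower) without diabetic replicate 1, and Slc25a20 (lower) without diabetic replicate 3. These counts were 5.13% to 10% of members higher and 2.5% to 5.13% lower, against 2.74% to 4% and 2.32% to 3.2% of all probesets in the same fits. Members with no overlap numbered 5 to 9 higher and 2 to 6 lower, where 2 arrays against 3 separate more often; the counts were 7 and 5 without normal replicate 1, 5 and 4 without normal replicate 3, and 9 and 6 without diabetic replicate 1. As shares these were 12.5% to 22.5% and 5% to 15% of members, against 11.3% to 13.2% and 9.31% to 11.4% of all probesets, and the highest, 22.5% and 15%, were without diabetic replicate 1, where all probesets gave 11.3% and 9.54%. With all arrays kept, median centring left Hadha, Decr1 and Plin2 higher and Hadh and Acaa1a lower without overlap, and quantile normalisation added Acaa1a. The median change of members ran from -0.023 (without diabetic replicate 2) to 0.079 (without diabetic replicate 1).

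Of the 40 members 23 kept their sign throughout. The sign turned for Pparg with quantile normalisation (0.0012), for Etfdh and Hsd17b4 with median centring (-0.016 and -0.0050), and for Acadsb, Acadvl, Acat1, Hsd17b10 and Lipe with array weights (-0.0011, 0.0062, 0.039, -0.0026 and -0.020). It also turned without 1 array for 17 members, whose changes then ran from -0.12 to 0.034 (Acsl4), -0.12 to 0.30 (Acadsb), -0.063 to 0.043 (Acadvl), -0.032 to 0.21 (Hadhb), -0.11 to 0.17 (Acat1), -0.073 to 0.11 (Hsd17b10), -0.036 to 0.22 (Ech1), -0.024 to 0.16 (Etfa), -0.16 to 0.13 (Etfdh), -0.54 to 0.018 (Decr2), -0.026 to 0.31 (Acox3), -0.085 to 0.085 (Hsd17b4), -0.0082 to 0.073 (Acot2), -0.13 to 0.031 (Pparg), -0.060 to 0.096 (Ppargc1b), -0.34 to 0.0043 (Pnpla2) and -0.013 to 0.090 (Lipe). Apart from Pnpla2 without diabetic replicate 1, none of these 17 had an unadjusted p under 0.05 in any setting, and the cause of these turns was not tested.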
